A study of Mus musculus with 4 samples.

Results

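Simple keratins and desmosome genes were examined as a group of 9: the keratins Krt7, Krt8, Krt18 and Krt19, and the desmosome genes Dsp, Dsg2, Dsc2, Jup and Pkp2. Members were taken by name, as every probe set whose only gene symbol in GEO's platform annotation was one of the 9, which gave 22 of the 45101 probe sets on the array. The tissues came from ARC/s mouse embryos at embryonic day 8.5 with 4 to 5 somites, of no stated genotype or treatment. Foregut endoderm from the anterior intestinal portal (2 samples, numbered 1 and 2) was compared with mesoderm and ectoderm (2 samples), which combined heart mesoderm with head mesoderm and ectoderm, and each sample pooled 15 to 20 tissue pieces. Samples numbered 1 came from experiment 1, dissected by hand alone, and samples numbered 2 from experiment 2, with trypsin and pancreatin digestion before dissection, per the labels' protocols, so that experiment and dissection cannot be told apart. A description field of foregut endoderm 2 reads ectoderm, whereas its title, source and tissue labels read foregut endoderm, which was used.

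Keratins form intermediate filaments from obligate pairs of a type II and a type I chain. Krt7 and Krt8 are type II and Krt18 and Krt19 type I, and these chains are typical of single-layered epithelia such as the gut lining, whereas stratified epidermis uses other pairs. Desmosomes tie such filaments from cell to cell: the cadherins desmoglein (Dsg2) and desmocollin (Dsc2) cross the gap, plakoglobin (Jup) and plakophilin (Pkp2) bind their tails, and desmoplakin (Dsp) holds the filaments. The same desmosome genes serve the intercalated discs of heart muscle, where desmoplakin holds desmin instead of keratin.

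Krt8 and Krt18, which encode partner chains, are neighbours on chromosome 15 with 0 protein-coding genes between them in the RefSeq gene table of GRCm38.p6, although keratins of type I otherwise lie on another chromosome. Krt7 lies in the same type II cluster, with 23 protein-coding genes between it and Krt8. Their upstream regions are shown because Krt8 and Krt18 were bright on the same arrays, whereas Krt7 was bright on a single one. RefSeq windows (GRCm38.p6) were read for 5 of the 9 members, namely Krt7, Krt8, Krt18, Dsp and Jup. No window was read for Krt19, Dsg2, Dsc2 or Pkp2. Each sequence gives the 250 bases before the annotated start, 5′ to 3′ on the gene's strand, and capitals mark the E-box CACCTG, the letters bound by Snail and Zeb repressors of epithelial genes. The windows are chr15:102004343-102004592 for Krt8 (minus strand), chr15:102027966-102028215 for Krt18 (plus strand) and chr15:101412153-101412402 for Krt7 (plus strand).
Krt8: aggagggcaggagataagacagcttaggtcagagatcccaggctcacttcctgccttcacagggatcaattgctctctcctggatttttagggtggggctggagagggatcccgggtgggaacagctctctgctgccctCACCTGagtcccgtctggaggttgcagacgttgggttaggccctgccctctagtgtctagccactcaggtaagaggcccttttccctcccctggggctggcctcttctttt
Krt18: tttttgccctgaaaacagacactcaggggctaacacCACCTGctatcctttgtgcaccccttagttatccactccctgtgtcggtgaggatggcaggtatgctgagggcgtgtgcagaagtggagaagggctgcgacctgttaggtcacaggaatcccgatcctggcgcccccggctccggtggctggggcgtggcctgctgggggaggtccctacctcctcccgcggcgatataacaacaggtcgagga
Krt7: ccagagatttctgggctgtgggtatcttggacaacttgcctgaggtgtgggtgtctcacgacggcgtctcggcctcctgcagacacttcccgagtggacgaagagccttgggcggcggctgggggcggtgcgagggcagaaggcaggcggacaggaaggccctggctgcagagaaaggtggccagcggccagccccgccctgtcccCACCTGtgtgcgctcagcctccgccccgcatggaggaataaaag

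The E-box, searched on both strands, occurred once in each of these keratin windows, beginning 111 bases before the start in Krt8, 214 in Krt18 and 44 in Krt7, and 0 times in the windows of Dsp and Jup. Of all 32851 RefSeq windows of this length, 17.2% held it. The GC box GGGCGG was found 4 times in Krt7, 4 times in Dsp and 2 times in Jup, but in neither Krt8 nor Krt18, and 32.7% of all windows held it. The forkhead letters TGTTTNC occurred once, in Krt18 (17.8% of all windows), and the Grainyhead letters AACCNGTT in none of the 5 windows (1.79% of all windows). Matches of different motifs did not overlap. A match describes the letters only and does not show a bound site.

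Before the members, the labels were set against marker genes. Of 10 foregut endoderm markers, all 9 above the filter, which asked for more than 5 log2 units on 2 or more of the 4 arrays, were higher in endoderm in both experiments, among them the gut factor Foxa1 at 10.92 and 10.82 in endoderm 1 and 2, against 4.13 and 4.89 in mesoderm and ectoderm 1 and 2. Foxa1, Foxa2 and Pax9 passed the filter through the endoderm arrays alone, so that their direction was fixed by it. Cdh1, above 5 on all 4 arrays, was at 10.28 and 11.73 in endoderm 1 and 2, against 7.52 and 7.67 in mesoderm and ectoderm 1 and 2. Heart muscle markers did not follow the labels in the same way. Of 13 such genes, 11 lay above a log2 intensity of 5 in endoderm 1 and 4 in endoderm 2, against 0 and 13 in mesoderm and ectoderm 1 and 2. Their summed intensity was 14766 and 1206 in endoderm 1 and 2, against 131 and 106828 in mesoderm and ectoderm 1 and 2. In the sample labelled mesoderm and ectoderm 1 the heart markers had a median log2 intensity of 2.76 and reached at most 4.59 (Myl4, an atrial myosin light chain), where the lowest value of the array was 2.28. Markers of endothelium and red blood cells were high on the same arrays. Of 8 endothelial markers 5 and 0 lay above 5 in endoderm 1 and 2, against 0 and 4 in mesoderm and ectoderm 1 and 2. The 4 red blood cell markers on the array summed to intensities of 2379 and 204 in endoderm 1 and 2, against 405 and 2439 in mesoderm and ectoderm 1 and 2. Head mesenchyme markers shared the difference between the endoderm arrays but not that between the other 2. Their median over 8 genes was 8.01 and 5.29 in endoderm 1 and 2, against 6.40 and 6.83 in mesoderm and ectoderm 1 and 2. In both mesoderm and ectoderm arrays 7 of the 8 lay above 5. Every result on desmosome genes, which heart muscle also uses, is therefore given within each experiment as well as over both.

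In the values as deposited, the simple keratins Krt8, Krt18 and Krt19 exceeded the other tissue in foregut endoderm by 4-fold or more in each experiment. Krt7 stood above the dim range in a single endoderm array. Krt8 (probe set 1420647_a_at) had log2 intensities of 10.16 and 12.43 in foregut endoderm 1 and 2, against 7.83 and 10.18 in mesoderm and ectoderm 1 and 2. Endoderm was the higher tissue within each experiment, but the groups overlapped, as endoderm 1 lay just below mesoderm and ectoderm 2. The differences within experiments 1 and 2 were 2.33 and 2.25 log2 units (5.03-fold and 4.75-fold). The other 2 probe sets of Krt8, 1423691_x_at and 1435989_x_at, differed by 2.30 and 2.26 in experiment 1 and by 2.20 and 2.10 in experiment 2. Under median centring, 1435989_x_at fell to 1.98 in experiment 2, just below 4-fold. By Affymetrix naming, the suffix of those 2 marks probes that may also bind related transcripts.

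Krt18 (1448169_at), the type I partner of Krt8, had log2 intensities of 9.39 and 12.10 in endoderm 1 and 2, against 5.06 and 8.46 in mesoderm and ectoderm 1 and 2. Both endoderm arrays lay above both others. Its differences of 4.32 in experiment 1 and 3.64 in experiment 2 correspond to 20.0-fold and 12.5-fold. Krt19 (1417156_at), a short type I keratin of ductal and gut epithelium, was at 6.11 and 9.41 in endoderm 1 and 2, against 3.20 and 6.20 in mesoderm and ectoderm 1 and 2. Endoderm 1 again fell below mesoderm and ectoderm 2, so that the groups overlapped, with differences of 2.91 and 3.22 within experiments 1 and 2. The value of 3.20 is dim, and with 16 added to each intensity before log2 the mean difference of Krt19 was 2.36 in place of 3.06. Krt7 (1423952_a_at), a type II keratin of ducts and other simple epithelia, did not pass the filter. It had log2 intensities of 2.99 and 7.54 in endoderm 1 and 2, against 2.71 and 2.86 in mesoderm and ectoderm 1 and 2. It was thus bright in the second endoderm array alone, where it exceeded its experiment's other tissue by 4.68 log2 units, against 0.28 in experiment 1. As the dim values of Krt7 may be probe background, 4.68 is best read as a bound in size.

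**Figure D1:**
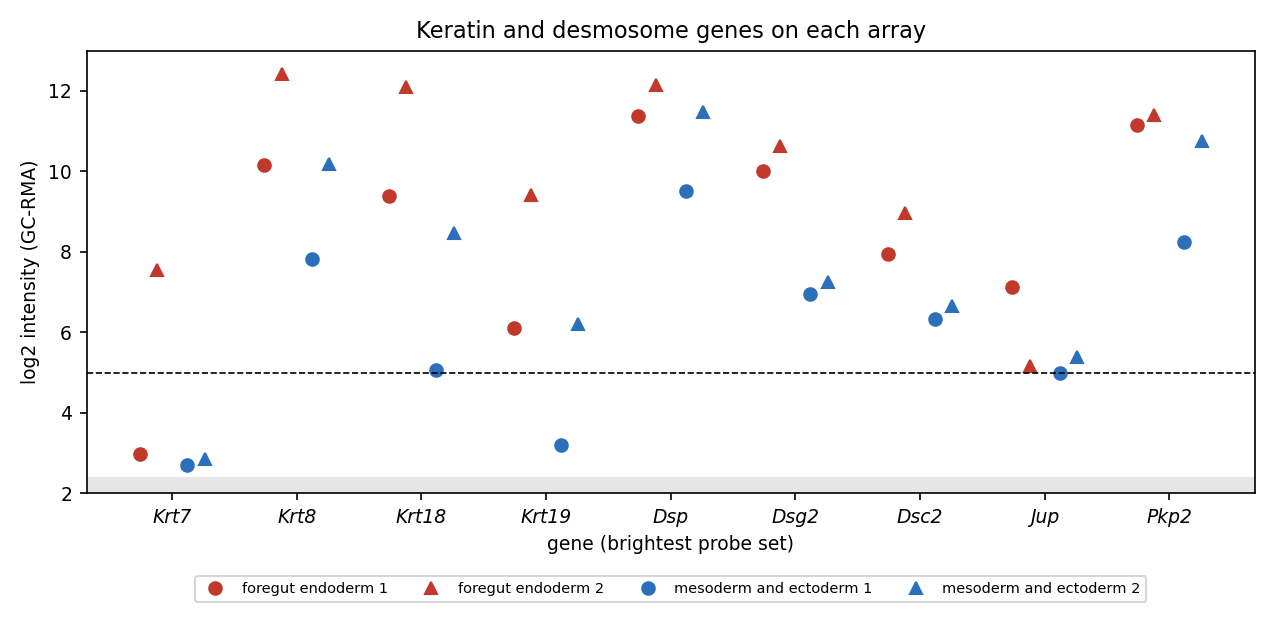
Log2 intensity (GC-RMA, vertical axis) of the brightest probe set of each gene on the 4 arrays, foregut endoderm in red and mesoderm and ectoderm in blue, with circles for experiment 1 and triangles for experiment 2. The dashed line is the filter at 5 and the grey band the lowest array values; triangles lie above circles of the same tissue for the 4 keratins, and Krt7 rises above the dim range only in foregut endoderm 2, at 7.54.

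The desmosomal cadherins were also higher in foregut endoderm, and their arrays did not overlap between tissues. Dsg2 (1449740_s_at), the desmoglein of simple epithelia and heart, had log2 intensities of 10.01 and 10.63 in endoderm 1 and 2, against 6.95 and 7.25 in mesoderm and ectoderm 1 and 2. Within experiments 1 and 2 it differed by 3.06 and 3.37. A further Dsg2 probe set, 1439476_at, gave 3.03 and 3.39. Over both experiments Dsg2 averaged 10.32 ± 0.44 in endoderm and 7.10 ± 0.21 in mesoderm and ectoderm (SD, n = 2 each), 9.28-fold higher (log2 difference 3.21 ± 0.40, SE). Dsc2 (1426911_at), the desmocollin found with Dsg2, was at 7.96 and 8.96 in endoderm 1 and 2, against 6.33 and 6.65 in mesoderm and ectoderm 1 and 2. Its differences were 1.63 in experiment 1 and 2.31 in experiment 2, and the difference of the means was 1.97 ± 0.49 (SE).

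The plaque genes Dsp, Pkp2 and Jup stood 2.83-fold or more above the other tissue in endoderm in experiment 1, in each of their probe sets above the filter, but within 2-fold of it in experiment 2, apart from the Dsp probe set 1435494_s_at, which passed 2-fold there under quantile normalization (1.06 log2 units). Dsp (1435493_at), desmoplakin, had log2 intensities of 11.38 and 12.15 in endoderm 1 and 2, against 9.52 and 11.49 in mesoderm and ectoderm 1 and 2. The groups overlapped, since endoderm 1 lay below mesoderm and ectoderm 2. Differences were 1.86 in experiment 1 and 0.66 in experiment 2, and 1.86 and 0.97 at the probe set 1435494_s_at. Pkp2 (1449799_s_at), plakophilin 2, had 11.17 and 11.40 in endoderm 1 and 2, against 8.25 and 10.77 in mesoderm and ectoderm 1 and 2. Both endoderm arrays were the higher ones, by 2.91 in experiment 1 and 0.63 in experiment 2. At its dimmer probe set 1429183_at these values were 1.50 and 0.11, and the value of experiment 2 turned to -0.01 under quantile normalization and median centring alike.

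Jup (1426873_s_at), plakoglobin, which serves adherens junctions too, had 7.12 and 5.17 in endoderm 1 and 2, against 5.00 and 5.40 in mesoderm and ectoderm 1 and 2. Endoderm 1 stood apart and the other 3 arrays lay close together. The tissue difference was 2.11 in experiment 1 and -0.23 in experiment 2, a change of sign that 1 array per tissue and experiment does not allow to be tested. In mesoderm and ectoderm, Dsp and Pkp2 were 1.97 and 2.52 log2 units higher in sample 2 than in sample 1, the sample pair in which 13 against 0 heart muscle markers lay above 5. Jup, Dsg2 and Dsc2 differed there by 0.40, 0.30 and 0.32. The keratins Krt8, Krt18 and Krt19 were higher in that sample 2 by 2.35, 3.40 and 3.00. In endoderm, where 4 such markers were above 5 in sample 2 against 11 in sample 1, the difference of sample 2 from sample 1 was 0.77 for Dsp, 0.24 for Pkp2 and -1.94 for Jup. The part of heart tissue, of vessels, blood or head mesenchyme in these values was not tested, and in pooled tissue fewer cells of a type and less RNA per cell cannot be told apart.

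**Figure D2:**
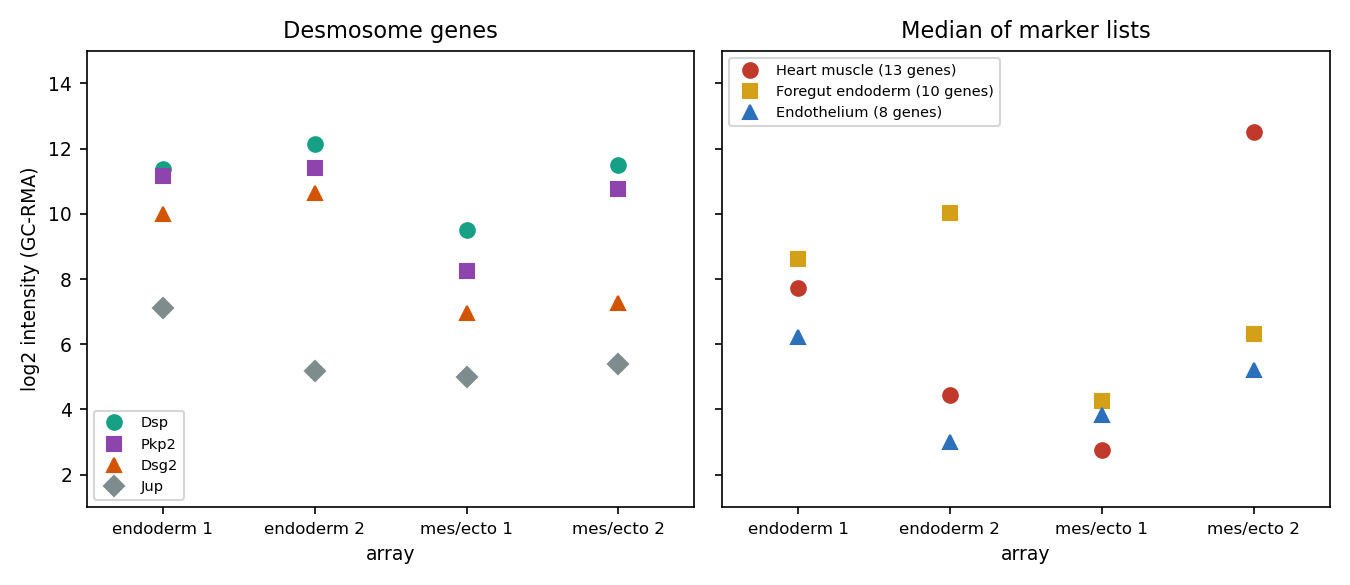
Log2 intensity (GC-RMA) on each of the 4 arrays for the brightest probe sets of 4 desmosome genes (left) and for the median of 3 marker lists (right), each point 1 array. Dsp and Pkp2 reach 11.49 and 10.77 in mesoderm and ectoderm 2, where the heart muscle median is at 12.50, against 9.52 and 8.25 in mesoderm and ectoderm 1, where it is at 2.76. Jup and Dsg2 are at 5.40 and 7.25 in mesoderm and ectoderm 2, against 5.00 and 6.95 in mesoderm and ectoderm 1.

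Of the 22 member probe sets, 13 passed the filter, covering 8 genes. None of the 13 passed through the endoderm arrays alone. At least 2-fold higher values in endoderm in both experiments were found for 8 of these 13 (Krt8, Krt18, Krt19, Dsg2 and Dsc2), and lower ones by as much for 0. Over all 13288 probe sets above the filter 3.57% were higher in this way and 1.0% lower (474 and 133 probe sets). That split became 367 and 194 under quantile normalization and 347 and 211 under median centring, where 9 and 8 member probe sets were higher. At 4-fold, 7 of the 13 were higher in both experiments, as were 118 of all 13288. Without mesoderm and ectoderm 1, when mesoderm and ectoderm 2 served both experiments, 3 of the 13 and 1097 of all probe sets were at least 2-fold higher, and without foregut endoderm 2 these counts were 4 and 616. Median differences of the 13 were 2.30 in experiment 1 and 2.20 in experiment 2, against 0.12 and 0.03 over all probe sets. Both endoderm arrays lay above both others in 5 of the 13, for Krt18, Dsg2, Dsc2 and Pkp2, against 16.4% of all probe sets, and below both in 0, against 9.05%.

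The 9 member probe sets below the filter belonged to Krt7, Dsp, Dsg2, Dsc2 and Pkp2. Among them, 1425619_s_at of Dsg2 was at 4.30 and 3.91 in endoderm 1 and 2, against 2.89 and 2.51 in mesoderm and ectoderm 1 and 2, with differences of 1.41 and 1.39, past 2-fold in both experiments but below those of the bright Dsg2 probe sets. The Dsp probe set 1427610_at was at the lowest values of all 4 arrays. Probe sets of the same gene thus differed widely in what they registered.

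**Figure D3:**
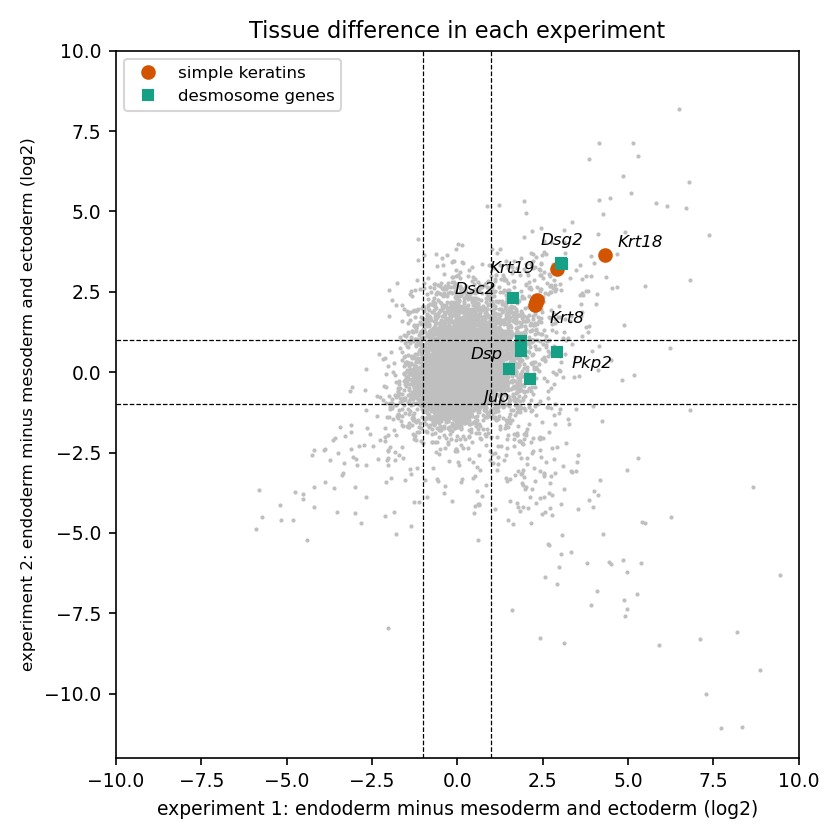
Foregut endoderm minus mesoderm and ectoderm (log2) in experiment 1 (horizontal axis) against experiment 2 (vertical axis) for the 13288 probe sets above the filter (grey), with the 13 of the keratin genes (orange circles) and the desmosome genes (green squares) on top and dashed lines at 2-fold. Krt8, Krt18, Krt19, Dsg2 and Dsc2 lie beyond 2-fold on both axes, whereas Dsp, Pkp2 and Jup pass it on the horizontal axis only.

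None of the member probe sets passed limma's test of the tissues, and neither did any other probe set (0.0% of 13288, with 2.97% higher and 0.79% lower in endoderm at an unadjusted p under 0.05). Both bright probe sets of Dsg2 had the lowest adjusted p of the fit, 0.724 in limma, and those of the other 7 genes were 1.0. The value of 0.724 was shared with other genes, such as Foxa1, Pax9 and Fezf1, and does not rank Dsg2 first. Krt18 averaged 10.74 ± 1.92 in endoderm and 6.76 ± 2.40 in mesoderm and ectoderm (SD, n = 2 each), a difference of 3.98 ± 1.63 (SE). For Krt8 and Krt19 these differences were 2.29 ± 1.24 and 3.06 ± 1.67, and for Dsp, Pkp2 and Jup 1.26 ± 0.84, 1.77 ± 0.98 and 0.94 ± 0.79. Leaving out mesoderm and ectoderm 1 or mesoderm and ectoderm 2 took the difference to 0.27 or 2.25 for Dsp and to 0.52 or 3.03 for Pkp2. These SE hold the common shift of both tissues from experiment 1 to experiment 2. With the replicate number as a block, the SE were 0.22 for Krt8, 0.30 for Krt18 and 0.24 for Krt19, and limma still called 0 probe sets (the lowest adjusted p was 0.351).

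That common shift was large for the keratins. In endoderm, Krt8, Krt18 and Krt19 were 2.27, 2.71 and 3.30 log2 units higher in experiment 2 than in experiment 1, and in mesoderm and ectoderm 2.35, 3.40 and 3.00. Krt7 was 4.55 higher in experiment 2 in endoderm but only 0.15 in mesoderm and ectoderm. The cadherins moved less, with 0.62 and 0.30 for Dsg2 and 1.00 and 0.32 for Dsc2 in endoderm and in mesoderm and ectoderm. At least 2-fold higher values of experiment 2 in both tissues were found for 6 of the 13 member probe sets, namely all 5 of the keratins Krt8, Krt18 and Krt19 and 1 of Dsp, against 11.4% of all probe sets. In limma's comparison of the experiments with tissue as a term, these 5 keratin probe sets had an adjusted p of 0.0966, the lowest value of that fit, and 0.0% of all probe sets passed (30.1% at an unadjusted p under 0.05). That value is a tie made by the adjustment, as their unadjusted limma p ran from 0.00106 to 0.00251, and does not rank the keratins first.

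The foregut endoderm markers were also higher in experiment 2 by their sum, though not each of them, as Foxa1 in endoderm was not. The 10 genes summed to intensities of 6148 and 15975 in endoderm 1 and 2, against 512 and 1338 in mesoderm and ectoderm 1 and 2. Markers of yolk sac visceral endoderm, another keratin-bearing epithelium, summed to 1314 and 5604 in endoderm 1 and 2, against 73.7 and 213 in mesoderm and ectoderm 1 and 2. The yolk sac sum was carried by Ttr, a plasma carrier protein, at log2 intensities of 9.76 and 12.13 in endoderm 1 and 2, while the median of the list was 3.83 and 3.61. Only 3 of the 8 were above 5 in either endoderm array, namely Ttr, Afp and Rbp4. All 3 passed 2-fold in each experiment, with endoderm as the higher tissue. Afp and Rbp4 passed the filter through the endoderm arrays alone, so that their direction was fixed by it. Afp was at 8.48 and 9.63 in endoderm 1 and 2, against 3.38 and 4.05 in mesoderm and ectoderm 1 and 2. For Rbp4 these values were 5.43 and 8.21, against 3.94 and 4.91. Apoa4 and Amn (chosen after their values were seen) were at the lowest array values throughout. None of the 4 trophoblast markers on the array reached 5 on any array. Of 8 surface ectoderm markers, 2 and 1 were above 5 in endoderm 1 and 2, against 3 in each of the other arrays, and the sums were 540 and 178 in endoderm 1 and 2, against 3111 and 1606 in mesoderm and ectoderm 1 and 2. The part of these tissues in the keratin values was not tested.

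**Figure D4:**
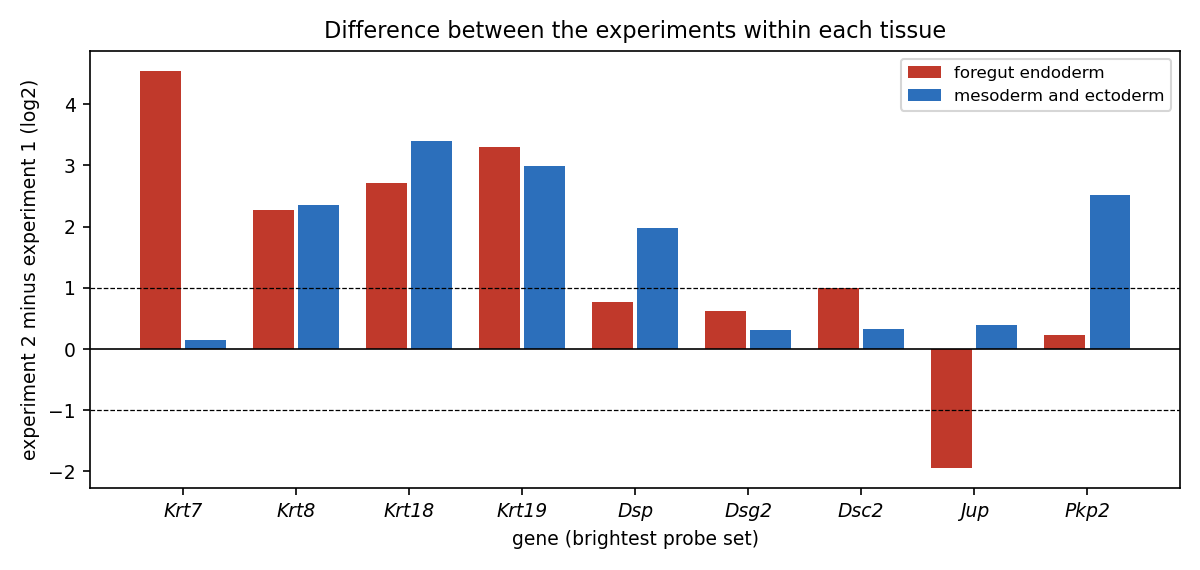
Experiment 2 minus experiment 1 (log2) for the brightest probe set of each gene, in foregut endoderm (red bars) and in mesoderm and ectoderm (blue bars), with dashed lines at 2-fold and 1 array per tissue and experiment. Krt8, Krt18 and Krt19 exceed 2 log2 units in both tissues, Krt7 is 4.55 higher in endoderm alone, and Jup lies at -1.94 in endoderm.

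The rest of the keratin and desmosome families was mostly dim in these tissues. Of 15 other keratins, 10 were at the lowest values on all 4 arrays, among them the basal epidermal Krt14, and Krt5, its partner, stayed between 3.75 and 3.76 (both chosen after their values were seen). The only one above the filter was Krt10, known from differentiating epidermis, at 5.41 and 6.54 in endoderm 1 and 2, against 5.45 and 7.65 in mesoderm and ectoderm 1 and 2. Of the 10 other desmosome and plaque genes on the array, 6 were at the lowest values throughout and 2 passed the filter. Perp, a tetraspan desmosome protein, was at 5.41 and 6.69 in endoderm 1 and 2, against 4.28 and 6.35 in mesoderm and ectoderm 1 and 2. Pkp4, a plakophilin relative of adherens junctions, was at 10.37 and 10.66 in endoderm 1 and 2, against 10.47 and 9.91 in mesoderm and ectoderm 1 and 2. None of the 3 was 2-fold apart in both experiments, where 3.54% of the 7802 genes above the filter were higher and 1.24% lower. Pkp3, a further plakophilin (chosen after its values were seen), was above 5 on 1 array only and so below the filter. It was at 4.70 and 6.41 in endoderm 1 and 2, against 4.09 and 4.64 in mesoderm and ectoderm 1 and 2. Its differences were 0.61 and 1.77 in experiments 1 and 2.

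Hemidesmosome and filament linker genes were also measured. Of 4 such genes above the filter, 3 were higher in endoderm in both experiments, against 37.0% of all genes, and 0 passed 2-fold in both. Eppk1, the keratin-binding epiplakin (chosen after its values were seen), was above 5 on 1 array only and so below the filter, at 5.52 and 4.58 in endoderm 1 and 2, against 4.30 and 2.61 in mesoderm and ectoderm 1 and 2, more than 2-fold apart in both experiments. Plec, the filament linker plectin, was at 7.55 and 7.64 in endoderm 1 and 2, against 5.99 and 6.70 in mesoderm and ectoderm 1 and 2. Dst, the hemidesmosome linker dystonin, differed by 0.47 and 1.01 in experiments 1 and 2, and Cd151, a tetraspanin partner of integrins, by 0.88 and 0.13. The integrin chain Itga6 had -0.26 and 0.04, of which the value of experiment 2 turned negative under both scalings.

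Among 7 adherens junction genes above the filter, 1 was at least 2-fold higher in both experiments, the epithelial cadherin Cdh1 at 2.76 and 4.06. Cdh2, the neural and mesenchymal cadherin, had -0.25 and -1.75, and the catenins Ctnna1 and Ctnnd1 had 0.62 and 0.89 in experiment 1 and 0.27 and 0.14 in experiment 2. Of 5 other intermediate filament genes above the filter, 0 were higher in endoderm in both experiments, against 37.0% of all genes. Vim, the mesenchymal filament vimentin, was at 12.07 and 9.98 in endoderm 1 and 2, against 10.04 and 11.75 in mesoderm and ectoderm 1 and 2. It was thus high in endoderm 1 and in mesoderm and ectoderm 2, like the heart, endothelial and red blood cell markers, whereas the keratins were highest in endoderm 2. Nes, the neural progenitor filament nestin, differed by 0.40 in experiment 1 and -1.85 in experiment 2, the neuronal Ina by -1.38 and -0.84, and the lamin Lmnb2 by -1.71 and -0.36. Ina passed the filter through the mesoderm and ectoderm arrays alone, so that its direction was fixed by it. Of 8 regulators of simple epithelial and desmosomal genes above the filter, 4 were at least 2-fold higher in both experiments and 2 at least 2-fold lower. Foxa1 and Foxa2 led the higher ones (6.79 and 3.12 in experiment 1, 5.93 and 4.03 in experiment 2), but passed the filter through the endoderm arrays alone. The lower ones were the AP-2 factors Tfap2a (-2.13 and -4.49) and Tfap2c (-3.36 and -3.21), which act in surface ectoderm and neural crest. None of the genes in these lists passed limma's test.

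Profiles over the 4 arrays, each centred on its own mean, were compared by Euclidean distance in log2 units across the 7802 genes. Nearest to Krt8 outside the 9 were Aard, Epcam, Adarb1, Pygl and Fmo2, at distances of 0.51, 0.56, 0.64, 0.64 and 0.66. Epcam, an adhesion molecule of simple epithelia, was at 9.26 and 11.74 in endoderm 1 and 2, against 6.38 and 9.04 in mesoderm and ectoderm 1 and 2, and so shared the shift between the experiments. Within the group, Krt19 was nearest to Krt8 at 1.16, and Jup farthest at 3.55. Nearest to Dsp were Mtarc2, Spin2c, Nek7, Ptprk and Wdr90, at 0.15 to 0.24, and Pkp2 was its nearest fellow member at 0.74. With 4 arrays such likeness describes these samples only.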

How the data were processed

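Affymetrix MOE430 arrays were read for 2 samples per tissue. The authors deposited an intensity for each probe set after GC-RMA normalization (GenePattern software), as the design text of the series states; RMA stands in the submitters' processing notes, with no version given. The linear scale was read from the values (median between 5.72 and 6.15). Here log2 was taken, 64 control probe sets were left out, and probe sets above 5 on at least 2 of 4 arrays (13288) were tested with limma 3.58.1 in R 4.3.3 (lmFit, eBayes, two-sided, Benjamini-Hochberg over all, threshold 0.05). The fit was also run on simulated data, with less spread than Krt8, Krt18 and Krt19 had and no shift between experiments. That run does not show its power in these data. Fixed lists were read at each gene's brightest probe set, and up to 4 kept genes per list with the largest absolute mean difference were named. Members and lists were chosen with earlier results of these data known. The comparison of the experiments was added after seeing the data. Sample numbers pair the tissues, because the labels' protocols give same-numbered samples the same dissection, and their deviations from tissue means correlated (Pearson's r = 0.56 across probe sets). Only 2 arrays per tissue limit the precision. Alternatives were the replicate block, other filters, quantile normalization, median centring, log2(value + 16), a 4-fold threshold and leaving out each array.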

Additional observations from a re-analysis of the deposited data

Results flagged for a closer look

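The tissue difference of Jup (1426873_s_at) had opposite signs in the experiments, 2.11 log2 units in experiment 1 and -0.23 in experiment 2, and the difference between them was not tested, as each rests on 1 array per tissue.

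Krt7 (1423952_a_at) did not enter the test because it passed the filter level on 1 array only, foregut endoderm 2, where its log2 intensity was 7.54, against 2.86 in mesoderm and ectoderm 2.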

How the results depend on the processing

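Limma called 0 probe sets and 0 of the members' under every alternative run, the lowest adjusted p being 0.0847 with no filter and 0.351 when the replicate number entered as a block (968 probe sets higher and 358 lower in endoderm by unadjusted p below 0.05). The block changed no call. Averaged over both experiments, all 77 member differences kept their sign outside the runs that left out an array, as did 50 of 52 within them. The exceptions were Jup, from -0.028 to 1.92, and Pkp2 1429183_at, from -0.020 to 1.63. Leaving out each array in turn, the mean difference of Krt8 ran from 0.89 to 3.61 over its 3 probe sets, that of Krt18 from 2.28 to 5.68, Krt19 from 1.41 to 4.71, Dsg2 from 2.90 to 3.53, Dsc2 from 1.47 to 2.47, Dsp 1435493_at from 0.27 to 2.25 and Pkp2 1449799_s_at from 0.52 to 3.03. At 4-fold in both experiments 169 probe sets passed in place of 607, and between experiments 490 in place of 1521. With an array left out, 820 to 1622 probe sets and 3 to 12 member probe sets were at least 2-fold apart between tissues, and 2002 to 2804 and 7 to 9 higher in experiment 2. The counts for experiment 2 then asked for 2-fold only in the tissue that kept both arrays. They are thus looser than the 1521, which asked for it in both tissues. Over all probe sets the median tissue difference was 0.10 as deposited, and it went to -0.02 under quantile normalization and to -0.08 under median centring. Without detection calls, dim values bound a difference but do not show absence.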
